A study of Homo sapiens with 10 samples.

Results

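The nuclear pore complex genes examined here are 30 genes that encode the proteins of the pore, out of 19775 genes on the array that have a probe set of their own. They were chosen by name, with earlier results of these data known, and every one had a probe set annotated with it. The pore complex is the channel through which RNA and protein pass the nuclear envelope. It is built as stacked rings: a Y-shaped scaffold on both faces, an inner ring, membrane proteins that fix it to the envelope, a channel lined by flexible proteins rich in phenylalanine and glycine (FG) repeats, filaments towards the cytoplasm and a basket towards the nucleus. Scaffold proteins are very long-lived, and dividing cells make pores anew in interphase and rebuild them after each mitosis. In myeloid leukaemias, the disease K562 comes from, fusions of NUP98 and NUP214 with other genes are known.

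Total RNA was measured in 5 preparations of microvesicles, membrane-bound particles shed by K562 cells, and in 5 preparations of the K562 cells themselves, a line from human chronic myeloid leukaemia with the BCR-ABL1 fusion. Neither group received a treatment according to the labels, and both come from 1 cell line. The comparison asks how the RNA carried by the particles differs from that of the cells that release them. Values are log2 expression values made by the authors with RMA, which removes background, scales arrays to each other and joins the probes of each set into 1 value. The deposited arrays nevertheless did not share a distribution: the SD over all probe sets was 1.89 to 1.99 in microvesicle arrays and 2.33 to 2.36 in cell arrays, and the medians were 4.22 to 4.28 in microvesicle arrays and 4.08 to 4.12 in cell arrays. Changes are microvesicles minus cells on this log2 scale, and a gene passed at a limma adjusted p under 0.05 over all genes. Each array was made from 100 ng of total RNA and carries no total of its own. Changes are therefore relative to the other transcripts of a sample, and neither particle number nor RNA per particle can be read. The number of arrays limits the precision. Between arrays, Pearson correlations across genes were 0.925 to 0.955 among microvesicles and 0.992 to 0.998 among cells. The labels do not tie equal replicate numbers to a shared culture, and the tests rest on the spread among the 5 preparations of each group, part of which may be technical.

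The erythroid genes that mark K562 were read in both groups. The embryonic globin gene HBE1 stood at 12.09 ± 0.13 in microvesicles and 11.72 ± 0.32 in cells, and the transferrin receptor gene TFRC at 10.65 ± 0.20 in microvesicles and 12.28 ± 0.23 in cells (SD, n = 5 each). Of 12 erythroid markers 9 had a probe set of their own, with group means from 6.19 to 12.09 in microvesicles and 5.92 to 12.28 in cells. Lymphocyte markers, 7 of 8 measured, ran from 4.02 to 8.01 in microvesicles and 3.15 to 8.18 in cells. The upper end was that of CD3D, which encodes a chain of the T cell receptor complex, and the 5 markers other than CD3D and CD3G stood at or below 5.53 in microvesicles and 4.96 in cells. CD3G stood at 5.27 in microvesicles and 6.52 in cells. Of the 9 erythroid markers 3 passed as lower in microvesicles and 1 as higher. Of the 7 lymphocyte markers 1 passed as lower and 4 as higher. Over all genes 31.2% were lower and 35.5% higher.

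Nearly all nuclear pore genes were lower in microvesicles. Of the 30 genes, 26 fell and 1 rose, while 3 did not pass. Over all genes, 31.2% were lower and 35.5% higher by the same rule. The median change was -1.36 over the pore genes and 0.20 over all genes. The falls were at least 2-fold in 21 pore genes and at least 4-fold in 9, against 19.8% and 5.28% of all genes. By the brightest probe sets the largest were those of the membrane protein gene NUP210, the scaffold gene NUP160 and the cytoplasmic filament gene RANBP2. This order depended on the probe set. With averaged probe sets NDC1 (-2.64) and RANBP2 (-2.46) fell most, and NUP210 (-1.89) and NUP160 (-1.88) fell less. The rise was that of AAAS, a gene for a peripheral protein held at the membrane ring. The genes that did not pass were NUP188, NUP214 and POM121.

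All microvesicle arrays lay below all cell arrays in 23 of the 30 genes, above them in 1, and the groups overlapped in 6. Over all genes, 26.1% were separated downwards and 23.8% upwards. The fall depended on scaling. Loess normalization by level, which removes an average shift at each level of expression, left 15 lower and 3 higher, with a median of -0.59. By that rule 18.3% of all genes were lower and 26.9% higher, and the median over all genes was 0.15. Quantile normalization of the deposited values, which gives all arrays the same distribution, left 15 lower and 2 higher, with a median of -0.65, against 16.5% and 26.5% of all genes.

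**Figure D1:**
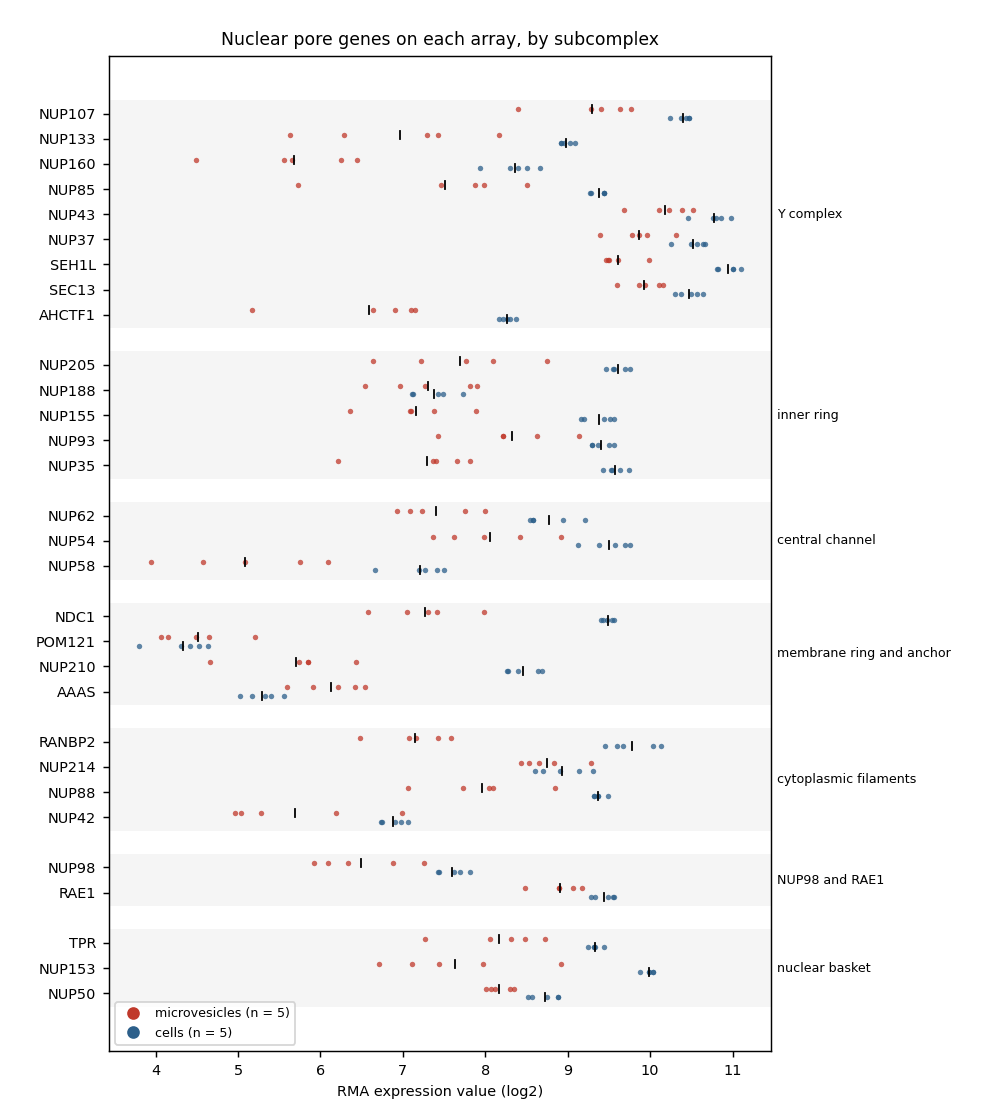
RMA values (log2, horizontal axis) of the 30 nuclear pore genes on each array, in rows by subcomplex, with microvesicles in red above cells in blue and a black tick at each group mean (n = 5 arrays each). In 23 rows all red points lie left of all blue points, in the AAAS row they lie right of them, and in 6 rows the groups overlap.

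Much of the array showed a shift that depended on level, so the pore genes were set beside all genes of the same mean level over the 10 arrays. Of the 30 pore genes 14 lay between 8 and 9, where 66.9% of 1298 genes fell and the median change was -0.81. The 14 pore genes there had a median of -1.65, and 13 fell. Between 7 and 8 the median was -1.85 for 6 pore genes and -0.98 for 1816 genes. Between 6 and 7 it was -1.66 for 2 pore genes and -0.84 for 2379 genes. The gap was smaller at high levels. The medians were -0.82 for 2 pore genes and -0.54 for 816 genes between 9 and 10. They were -0.63 for 4 pore genes and -0.44 for 470 genes between 10 and 11. Across all bands 26 of the 30 pore genes lay below the median change of their band, RAE1 by very little (-0.542 against -0.537). Those above it were AAAS, NUP188, NUP214 and NUP50. Across the 30 genes the change was hardly related to level (Pearson r = -0.066, Spearman rho = 0.18). The lowest levels were those of POM121 (4.42) and AAAS (5.71), which changed by 0.17 and 0.84. The relation without these genes was not computed, and the medians above shrank from 7 to 11. The values on both axes come from the same arrays.

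**Figure D2:**
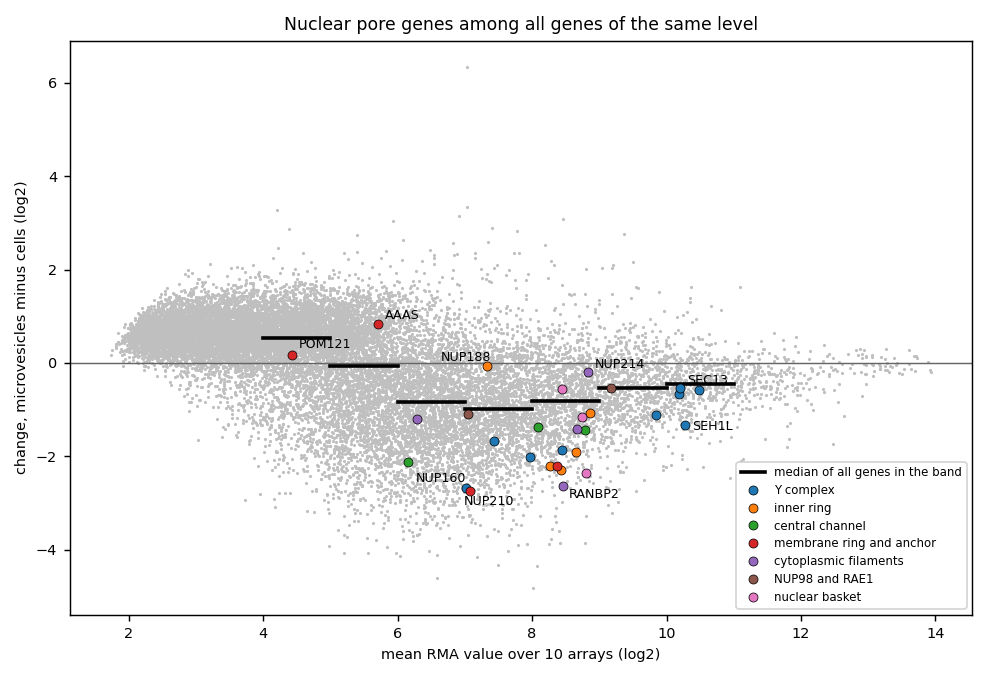
Change, microvesicles minus cells (log2, vertical axis), against the mean RMA value over 10 arrays (log2, horizontal axis) for all 19775 genes in grey and the 30 nuclear pore genes in colour by subcomplex. Black bars are the median of all genes in each band of level, and 26 of the coloured points lie below the bar of their band.

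The microvesicle preparations were not alike. Taken over the pore genes, the median distance from the cell mean was -0.62, -1.40, -1.23, -1.95 and -1.35 in microvesicle replicates 1 to 5. In the cell arrays it lay between -0.059 and 0.082. Microvesicle replicate 1 was therefore nearest to the cells and replicate 4 farthest. Replicate 1 had the highest microvesicle value in 20 of the 30 genes and replicate 4 the lowest in 16. The same counts were not taken over all genes, so this order cannot be called particular to the pore genes. The median SD of a pore gene was 0.558 in microvesicles and 0.155 in cells, and over all genes 0.454 in microvesicles and 0.147 in cells.

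Control probe sets for RNA integrity also differed between the groups. The difference between the 3′ and 5′ control probe sets of ACTB, which grows when RNA or its labelled copy is shorter, was 2.72, 2.93, 3.20, 3.64 and 3.13 in microvesicle replicates 1 to 5, against 2.26, 2.30, 2.30, 2.57 and 2.54 in the cells. The means were 3.12 ± 0.34 in microvesicles and 2.39 ± 0.15 in cells (SD, n = 5 each, two-sided exact permutation p = 0.00794, the smallest possible, adjusted p = 0.0159 over 2 measures). For GAPDH they were 0.62 ± 0.13 in microvesicles and 0.45 ± 0.064 in cells (SD, n = 5 each, two-sided exact permutation p = 0.0159, adjusted p = 0.0159). The lowest ACTB value among microvesicles was that of replicate 1 and the highest that of replicate 4. The part of RNA integrity in the falls of the pore genes was not tested. Without replicate 4 the median change of the pore genes was -1.28, and without replicate 1 it was -1.52, with 26 lower and 1 higher in each case.

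The promoters of the genes with the largest falls by the brightest probe sets, NUP210, NUP160 and RANBP2, and of AAAS, which rose, are shown as a description. A relation between promoters and the changes was not tested. The windows hold 250 bases before to 50 bases after the annotated start, from RefSeq on GRCh38.p14, written 5′ to 3′ along the gene. That of NUP210 is chr3:13420273-13420572 on the minus strand, that of NUP160 chr11:47848301-47848600 on the minus strand, that of RANBP2 chr2:108719232-108719531 on the plus strand and that of AAAS chr12:53321561-53321860 on the minus strand. Capitals mark matches to any of 5 motifs searched on both strands.
NUP210: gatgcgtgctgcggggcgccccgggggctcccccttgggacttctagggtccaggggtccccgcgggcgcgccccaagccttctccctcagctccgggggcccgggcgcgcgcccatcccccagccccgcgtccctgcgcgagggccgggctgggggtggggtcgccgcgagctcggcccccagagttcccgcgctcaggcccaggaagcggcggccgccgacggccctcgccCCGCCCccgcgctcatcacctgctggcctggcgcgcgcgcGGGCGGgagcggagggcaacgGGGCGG
NUP160: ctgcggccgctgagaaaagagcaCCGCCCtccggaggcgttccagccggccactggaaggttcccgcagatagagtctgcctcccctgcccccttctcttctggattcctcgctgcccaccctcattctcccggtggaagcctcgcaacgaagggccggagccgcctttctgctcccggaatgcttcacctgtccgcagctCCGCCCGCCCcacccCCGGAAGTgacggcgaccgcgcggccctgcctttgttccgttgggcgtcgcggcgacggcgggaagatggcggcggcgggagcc
RANBP2: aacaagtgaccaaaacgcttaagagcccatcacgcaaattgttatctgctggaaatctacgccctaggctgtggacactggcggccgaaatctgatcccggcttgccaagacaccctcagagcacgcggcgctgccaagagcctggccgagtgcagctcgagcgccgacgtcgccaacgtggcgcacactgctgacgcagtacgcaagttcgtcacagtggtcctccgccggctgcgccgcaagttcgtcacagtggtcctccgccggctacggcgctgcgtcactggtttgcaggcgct
AAAS: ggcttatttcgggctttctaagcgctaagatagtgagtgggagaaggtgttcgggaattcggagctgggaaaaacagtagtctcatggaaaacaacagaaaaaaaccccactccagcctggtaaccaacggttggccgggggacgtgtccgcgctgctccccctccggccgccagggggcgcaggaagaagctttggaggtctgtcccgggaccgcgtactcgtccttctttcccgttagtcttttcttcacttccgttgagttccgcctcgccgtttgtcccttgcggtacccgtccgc
NUP210 has 3 GC boxes. NUP160 has 1 ETS motif and 3 GC boxes, of which 2 overlap each other, and the windows of RANBP2 and AAAS hold no match.

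A window was found for 28 of the 30 genes, and where a gene has several starts the first listed was used. The ETS motif CCGGAAGT was in 6 of the 28 windows (21.4%) and in 4.44% of the windows of all 27305 genes. That is a description of these letters, not of binding. The cyclic AMP response element TGACGTCA was in 3 (10.7%, against 1.98% of all). The GC box GGGCGG was in 12 (42.9%, against 44.6%) and the CCAAT box CCAAT in 11 (39.3%, against 35.7%). The TATA box TATAAA was in 0 of the 28, against 12% of all windows. No 2 matches of different motifs overlapped in these windows. ETS motifs were in the windows of NUP160, SEC13, NUP35, NUP54, NUP58 and POM121, genes whose changes ran from -2.68 ± 0.31 to 0.17 ± 0.23.

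The Y complex is the largest scaffold unit of the pore, and all 9 of its genes fell, with a median of -1.34. NUP160 was 6.25, 5.56, 6.44, 4.49 and 5.66 in microvesicles, against 8.40, 8.66, 8.50, 7.94 and 8.30 in cells. All 5 microvesicle preparations were far below the cells, and replicate 4 was lowest. The change was -2.68 ± 0.31 (limma adjusted p = 1.2e-05), a 6.41-fold fall. Other, dimmer NUP160 probe sets changed by -1.72 ± 0.32 and -1.24 ± 0.21. NUP133, in the stem, was 8.17, 6.29, 7.43, 5.63 and 7.30 in microvesicles, against 9.03, 9.09, 8.92, 8.92 and 8.95 in cells, and changed by -2.02 ± 0.37 (limma adjusted p = 0.000435). Its microvesicle values spread widely, yet the highest of them was below every cell value. Next to it in the stem, NUP107 was 9.30 ± 0.54 in microvesicles and 10.40 ± 0.095 in cells (SD, n = 5 each), a change of -1.11 ± 0.23 (limma adjusted p = 0.00107). NUP85, of the short arm, was 7.51 ± 1.07 in microvesicles and 9.37 ± 0.091 in cells (SD, n = 5 each), a change of -1.86 ± 0.39 (limma adjusted p = 0.00117), and microvesicle replicate 4 stood at 5.72 while the other microvesicle arrays stood at 7.46 or more.

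SEC13, NUP43, NUP37 and SEH1L encode propeller proteins of the Y complex. SEC13, which is also part of the coat of vesicles that leave the endoplasmic reticulum, was 10.10, 9.59, 9.86, 9.94 and 10.15 in microvesicles, against 10.56, 10.31, 10.37, 10.65 and 10.49 in cells. The groups were separate but close, with a change of -0.55 ± 0.16 (limma adjusted p = 0.00867). NUP43 was 10.52, 10.23, 10.11, 9.68 and 10.38 in microvesicles, against 10.77, 10.98, 10.86, 10.46 and 10.80 in cells, and the highest microvesicle value passed the lowest cell value. Its change was -0.59 ± 0.18 (limma adjusted p = 0.0125), but another NUP43 probe set, at 3.11 in microvesicles and 5.45 in cells, changed by -2.35 ± 0.29, and the mean of both by -1.47. The microvesicle value of that other probe set is not known to exceed background. The change of NUP37 was -0.66 ± 0.18 (limma adjusted p = 0.00666), also with overlapping groups. SEH1L, which also belongs to a nutrient-sensing complex at the lysosome, was 9.61 ± 0.22 in microvesicles and 10.95 ± 0.13 in cells (SD, n = 5 each) and changed by -1.34 ± 0.16 (limma adjusted p = 1.36e-05). AHCTF1 encodes ELYS, which binds chromatin and brings the Y complex to it when pores are rebuilt after mitosis. It was 6.59 ± 0.82 in microvesicles and 8.26 ± 0.081 in cells (SD, n = 5 each), a change of -1.67 ± 0.31 (limma adjusted p = 0.00051). Another AHCTF1 probe set, at 5.61 in microvesicles and 8.14 in cells, changed by -2.52 ± 0.26. After loess 5 of the 9 genes stayed lower, with a median of -0.78, and NUP107 (-0.48), NUP43 (-0.056), NUP37 (-0.088) and SEC13 (0.027) did not pass. After quantile normalization NUP107 did pass (-0.60, limma adjusted p = 0.0276) and AHCTF1 did not (-0.84, limma adjusted p = 0.0914).

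In the inner ring, which holds the membrane curve and the channel together, 4 of 5 genes fell, with a median of -1.91. NUP35, which binds the membrane and other ring proteins, was 7.66, 6.21, 7.81, 7.36 and 7.40 in microvesicles, against 9.43, 9.53, 9.53, 9.75 and 9.63 in cells. The gap between the groups exceeded 1 on the log2 scale, and the change was -2.29 ± 0.26 (limma adjusted p = 9.86e-06). NUP155, which links ring and membrane, was 7.89, 7.08, 7.38, 6.36 and 7.09 in microvesicles, against 9.44, 9.57, 9.52, 9.19 and 9.16 in cells, a change of -2.22 ± 0.24 (limma adjusted p = 7.39e-06). NUP205, a large arched scaffold protein, was 7.69 ± 0.81 in microvesicles and 9.61 ± 0.12 in cells (SD, n = 5 each), a change of -1.91 ± 0.31 (limma adjusted p = 0.000176). NUP93, which ties the ring to the channel, was 8.32 ± 0.63 in microvesicles and 9.40 ± 0.12 in cells (SD, n = 5 each) and changed by -1.08 ± 0.26 (limma adjusted p = 0.00261).

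NUP188, the partner of NUP93 most like NUP205, did not follow. It was 6.96, 7.90, 6.54, 7.82 and 7.27 in microvesicles, against 7.48, 7.12, 7.12, 7.73 and 7.42 in cells. Microvesicle replicates 2 and 4 stood above every cell array and replicates 1 and 3 below every cell array, so the order of the preparations was unlike that of the other ring genes. The change was -0.073 ± 0.25 (limma adjusted p = 0.803), with overlapping groups. A dimmer NUP188 probe set, at 5.31 in microvesicles and 4.83 in cells, rose by 0.48 ± 0.19 (limma adjusted p = 0.0439 over all probe sets). The dimmest did not pass, at 0.17 ± 0.20. After loess NUP188 was higher, at 0.79 (limma adjusted p = 0.0387), while NUP35 (-1.49), NUP155 (-1.41) and NUP205 (-1.14) stayed lower and NUP93 (-0.33) did not pass. The difference between NUP188 and NUP205 was not tested.

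The channel genes NUP62, NUP54 and NUP58, whose FG-rich products form a trimer, all fell, with a median of -1.44. NUP58, listed on older platforms as NUPL1, was 4.57, 5.08, 5.75, 6.09 and 3.95 in microvesicles, against 7.19, 7.41, 7.49, 6.66 and 7.27 in cells. Here the order differed from most genes, since replicate 5 was lowest and replicate 4 highest among microvesicles. The change was -2.12 ± 0.34 (limma adjusted p = 0.000183). NUP54 was 8.06 ± 0.62 in microvesicles and 9.51 ± 0.26 in cells (SD, n = 5 each), a change of -1.44 ± 0.27 (limma adjusted p = 0.00047), and NUP62 was 7.40 ± 0.46 in microvesicles and 8.77 ± 0.29 in cells (SD, n = 5 each), a change of -1.37 ± 0.23 (limma adjusted p = 0.000213). After loess NUP58 (-1.39) and NUP54 (-0.68) stayed lower, and NUP62 stood at -0.55 (limma adjusted p = 0.0549).

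The membrane ring held the extremes in both directions. NUP210, a membrane protein with a large part in the lumen of the envelope, was 6.43, 5.74, 5.85, 5.85 and 4.66 in microvesicles, against 8.69, 8.40, 8.27, 8.64 and 8.27 in cells. No microvesicle array came within 1 unit of the cells. The change was -2.75 ± 0.27 (limma adjusted p = 3.09e-06), a 6.73-fold fall, and it stood at -1.89 after loess. Other NUP210 probe sets ranged from -2.78 to -0.80, all lower. NDC1, a membrane protein needed for pore insertion, was 7.99, 7.31, 7.41, 7.05 and 6.57 in microvesicles, against 9.57, 9.40, 9.43, 9.54 and 9.48 in cells. All microvesicle arrays were below the cells, with a change of -2.22 ± 0.22 (limma adjusted p = 4.02e-06). Another NDC1 probe set, at 4.67 in microvesicles and 7.75 in cells, changed by -3.07 ± 0.33.

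AAAS encodes ALADIN, a propeller protein that NDC1 holds at the pore. It was 5.90, 6.54, 6.42, 5.59 and 6.22 in microvesicles, against 5.56, 5.17, 5.32, 5.40 and 5.03 in cells. Every microvesicle array was above every cell array, the lowest (5.59, replicate 4) by little over the highest cell array (5.56). The change was 0.84 ± 0.20 (limma adjusted p = 0.00268), a 1.79-fold rise, and it was 1.39 (limma adjusted p = 9.54e-05) after loess. AAAS has a single probe set here, so no other probe set bears on its rise. Its mean over the 10 arrays was 5.71, and of the 3044 genes between 5 and 6, 31.7% were higher and 37.9% lower.

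POM121, another membrane protein, was read from a dim probe set, with 4.64, 5.21, 4.06, 4.15 and 4.49 in microvesicles, against 3.79, 4.42, 4.3, 4.53 and 4.64 in cells. The groups overlapped, and the values lay near the array medians of 4.22 to 4.28 in microvesicles and 4.08 to 4.12 in cells. The change was 0.17 ± 0.23 (limma adjusted p = 0.515), and without a detection call such values are not known to exceed background. A brighter probe set annotated with both POM121 and its near copy POM121C was 8.39 ± 0.64 in microvesicles and 9.78 ± 0.19 in cells (SD, n = 5 each). It changed by -1.39 ± 0.27 (limma adjusted p = 0.000655 over all probe sets), and it cannot be told from these values which of the copies was read.

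**Figure D3:**
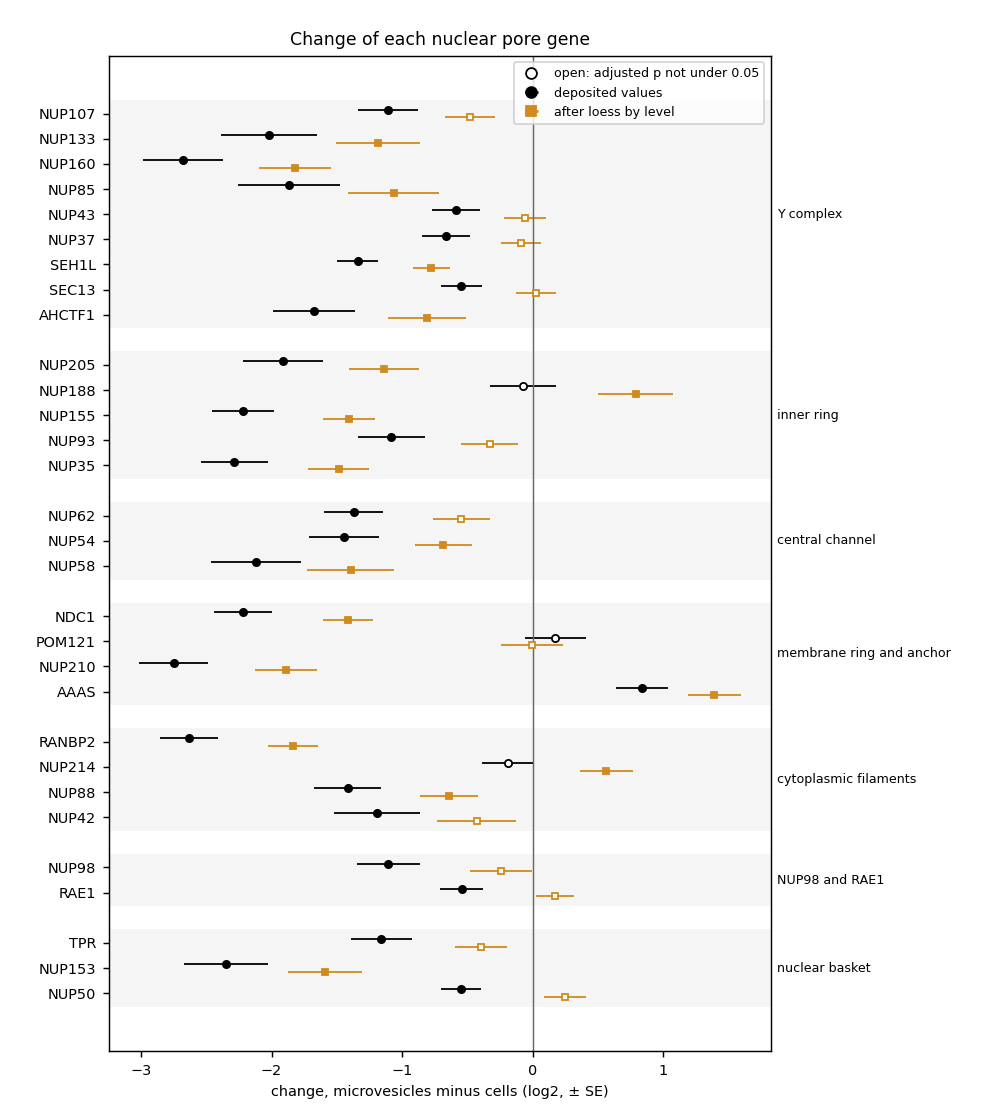
Change of each nuclear pore gene, microvesicles minus cells (log2 ± SE, horizontal axis, n = 5 arrays each), in rows by subcomplex, from the deposited values (black circles) and after loess normalization by level (orange squares). Open symbols did not pass, and RANBP2, NUP210 and NUP160 lie farthest left while AAAS lies right of 0 in both.

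At the cytoplasmic face, RANBP2, NUP88 and NUP42 fell and NUP214 did not pass, with a median of -1.30 over these 4 genes. RANBP2, a giant filament protein that binds Ran and attaches SUMO to other proteins, was 7.59, 7.16, 7.43, 6.48 and 7.07 in microvesicles, against 9.67, 10.13, 10.03, 9.45 and 9.60 in cells. The groups were nearly 2 units apart at their closest. The change was -2.63 ± 0.22 (limma adjusted p = 1.1e-06), a 6.20-fold fall, and it was -1.84 after loess. All 4 of its own probe sets agreed, between -2.63 and -2.39. RANBP2 has near copies, the RGPD genes, and a further probe set annotated with RANBP2 and 7 of them changed by -2.12 ± 0.24.

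NUP214, an FG protein known from leukaemia fusions, was 8.83, 8.43, 8.52, 8.65 and 9.28 in microvesicles, against 8.91, 8.70, 8.61, 9.31 and 9.14 in cells. The groups overlapped, and the change was -0.19 ± 0.20 (limma adjusted p = 0.411). After loess NUP214 was higher, at 0.57 (limma adjusted p = 0.0376), and after quantile normalization it did not pass (0.50, limma adjusted p = 0.0671). NUP88, which forms a unit with NUP214, was 7.96 ± 0.64 in microvesicles and 9.37 ± 0.071 in cells (SD, n = 5 each), a change of -1.42 ± 0.26 (limma adjusted p = 0.000428). The difference between these partners was not tested. NUP42, listed on older platforms as NUPL2 and a partner of the mRNA export factor GLE1, was 6.98, 5.03, 6.19, 4.97 and 5.28 in microvesicles, against 6.97, 6.73, 6.75, 7.06 and 6.91 in cells. Microvesicle replicate 1 lay within the cell values, and the other 4 below them. The change was -1.19 ± 0.33 (limma adjusted p = 0.00674), and it did not pass after loess, at -0.43 (limma adjusted p = 0.267).

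NUP98 and RAE1 act together in mRNA export on both faces of the pore. The NUP98 transcript also encodes NUP96, a part of the Y complex. NUP98 was 7.26, 6.34, 5.92, 6.09 and 6.89 in microvesicles, against 7.63, 7.44, 7.43, 7.82 and 7.69 in cells. The groups were separate, with microvesicle replicate 1 nearest the cells, and the change was -1.10 ± 0.24 (limma adjusted p = 0.00146). RAE1 was 8.90 ± 0.27 in microvesicles and 9.44 ± 0.13 in cells (SD, n = 5 each), a change of -0.54 ± 0.17 (limma adjusted p = 0.0113). After loess neither passed, with NUP98 at -0.24 (limma adjusted p = 0.426) and RAE1 at 0.17 (limma adjusted p = 0.352). NUP98 was also read by 2 other probe sets, at -2.18 ± 0.24 and -1.77 ± 0.24, so its change depended on the probe set.

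All genes of the nuclear basket fell. NUP153, the FG protein that anchors the basket, was 8.92, 7.44, 7.11, 6.71 and 7.97 in microvesicles, against 9.99, 10.03, 9.87, 10.03 and 9.98 in cells. Microvesicle replicate 1 was about 1 unit below the lowest cell array and replicate 4 over 3, and the change was -2.35 ± 0.32 (limma adjusted p = 4.98e-05). TPR, the coiled-coil protein of the basket filaments, was 8.72, 8.06, 8.32, 7.27 and 8.48 in microvesicles, against 9.33, 9.31, 9.31, 9.25 and 9.44 in cells. The change was -1.16 ± 0.23 (limma adjusted p = 0.00086). NUP50, which helps to release cargo from importin α, was 8.30, 8.12, 8.07, 8.35 and 8.0 in microvesicles, against 8.88, 8.57, 8.52, 8.88 and 8.75 in cells. Its groups were separate but close, with a change of -0.55 ± 0.15 (limma adjusted p = 0.00656). After loess NUP153 stayed lower, at -1.59 (limma adjusted p = 0.000507), whereas TPR stood at -0.39 (limma adjusted p = 0.122) and NUP50 at 0.25 (limma adjusted p = 0.223). For TPR the other 4 probe sets ranged from -3.60 to -1.42, all lower and all past the threshold.

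Most of the genes were read by more than 1 probe set, which the arrays allow to be compared. The 74 probe sets annotated with a single pore gene comprised 58 that fell, 7 that rose and 9 that did not pass, against 27% lower and 35.4% higher of all 54630 probe sets. Of the 50 with a mean of at least 6 in cells, 48 fell and 0 rose. Of the 24 with a lower cell mean 10 fell and 7 rose. The cell mean is itself part of the comparison, so this split favours falls above 6 and rises below it. Rising probe sets of AAAS (6.13 in microvesicles) and NUP214 (6.67 in microvesicles) were among the 24. The split is a description only, and the shares of all probe sets on each side of 6 were not taken. Among all genes with a mean over the 10 arrays between 6 and 11, 54.5% to 69.5% were lower by band. In 13 of the 22 genes with several probe sets all of them fell, among them NUP210 with 5, TPR with 5, RANBP2 with 4 and NUP58 with 4. Some of these falls, as in TPR, NUP43 and NUP133, were read at microvesicle levels not known to exceed background. A further 4 probe sets are annotated with a pore gene and another gene as well, and these were left out of the counts. Besides those of POM121 and RANBP2 they were 1 shared by NUP62 and IL4I1, which rose by 0.73 ± 0.27, and 1 shared by AHCTF1 and AHCTF1P1, which did not pass at -0.47 ± 0.28.

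In 5 genes, NUP214, NUP50, NUP54, NUP93 and RAE1, probe sets passed in both directions. NUP214 was the plainest case. Its brightest probe set, given above, did not pass, while another fell, with 5.86 in microvesicles and 7.86 in cells (limma adjusted p = 0.000165 over all probe sets). A dimmer one rose by 1.22 ± 0.25, with 6.67 in microvesicles and 5.46 in cells. For NUP50 the probe set at 4.55 in microvesicles and 3.36 in cells rose by 1.19 ± 0.32, and the probe sets with a cell mean of at least 6 all fell. The rising probe sets of NUP54 (0.65 ± 0.22), NUP93 (0.79 ± 0.22) and RAE1 (0.84 ± 0.24) had cell means of 2.41, 2.37 and 3.30, where values are not known to exceed background. When all probe sets of a gene were averaged in place of taking the brightest, 23 genes fell and 1 rose, and NUP54, NUP93 and RAE1 no longer passed. The averages moved by over 1.5 times from the brightest probe set in further genes that passed both ways, to -0.65 for NUP62, -0.50 for NUP88, -1.41 for NUP153, -1.69 for NUP98 and -1.94 for TPR. By that rule 29.7% of all genes were lower and 40.9% higher.

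**Figure D4:**
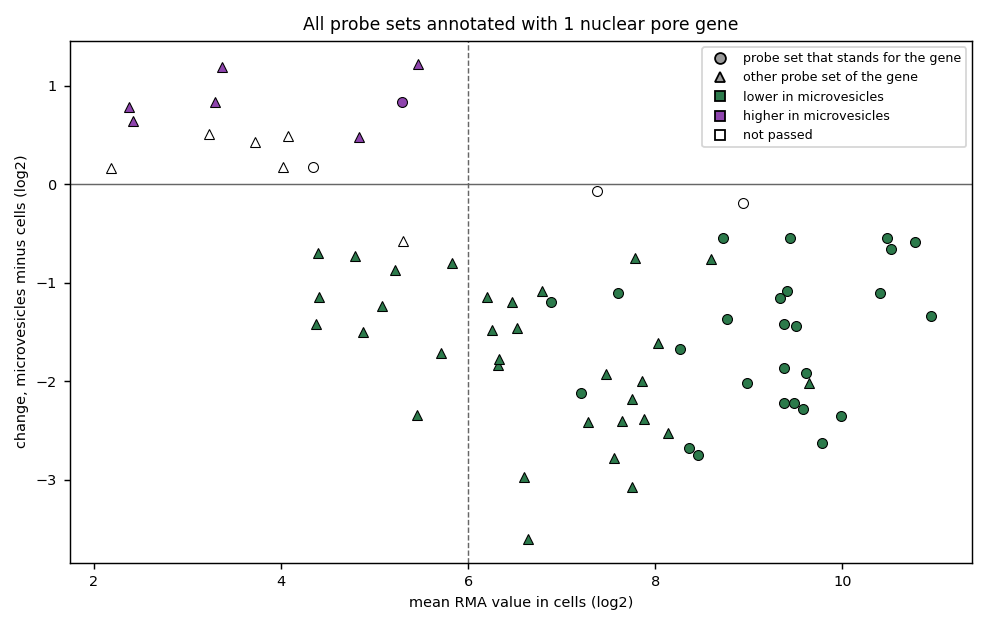
Change, microvesicles minus cells (log2, vertical axis), against the mean RMA value in cells (log2, horizontal axis) for the 74 probe sets annotated with 1 nuclear pore gene, with circles for the probe set that stands for the gene and triangles for its others. All 7 rises (purple) lie left of the dashed line at 6, and right of it 48 of 50 fell (green). The cell mean is itself part of the change, so a split at the line favours this pattern. The shares of all probe sets on each side of the line were not taken.

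The carriers that use the pore were compared in the same way. Outside the pore, 52 of 58 listed nuclear transport genes had a probe set of their own, and 31 of them fell and 1 rose, with a median of -0.72. Over all genes 31.2% were lower and 35.5% higher, and among genes with mean levels between 6 and 11 the share lower was 54.5% to 69.5% by band. The comparison with the pore genes was not tested. Importins and transportins, which carry proteins inwards, had 13 falls and 1 rise among 18, with a median of -0.96. The importins IPO9 and KPNA5 changed by -1.94 ± 0.19 (limma adjusted p = 3.83e-06) and -1.94 ± 0.22 (limma adjusted p = 1.08e-05). The rise was that of IPO11, by 0.88 ± 0.24 (limma adjusted p = 0.00652), at only 3.34 in microvesicles and 2.46 in cells and with overlapping groups. Without microvesicle replicate 1, 3 or 4 or cell replicate 4 the number of rises was 2 in place of 1.

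Exportins had 4 falls among 7 (median -0.70). XPO1, the main exportin, changed by -1.59 ± 0.17 (limma adjusted p = 5.46e-06) and CSE1L, which returns importin α to the cytoplasm, by -1.09 ± 0.26 (limma adjusted p = 0.00282). Of the Ran cycle, which gives transport its direction, 4 of 6 genes fell (median -0.61), with RANBP3 at -0.86 ± 0.25 (limma adjusted p = 0.00879) and RANBP1 at -0.76 ± 0.18 (limma adjusted p = 0.0025). Of the mRNA export genes 10 of 21 fell (median -0.50), with THOC1 at -1.87 ± 0.21 (limma adjusted p = 1.13e-05) and THOC2 at -1.84 ± 0.23 (limma adjusted p = 2.53e-05), both parts of the complex that couples transcription to export. After loess 16 of the 52 transport genes were lower and 12 higher, beside 18.3% and 26.9% of all genes, with medians of -0.34 for importins and transportins, 0.12 for exportins, 0.13 for the Ran cycle and 0.086 for mRNA export. IPO9 (-1.08), KPNA5 (-1.14), XPO1 (-1.13), CSE1L (-0.61), RANBP1 (-0.42), THOC1 (-1.05) and THOC2 (-1.09) stayed lower, and IPO11 and RANBP3 did not pass. With averaged probe sets RANBP3 stood at 0.026 (limma adjusted p = 0.846), so its fall was lost and its sign turned, while IPO9 (-1.10) and RANBP1 (-0.33) passed with smaller falls and all 7 exportins were lower.

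**Figure D5:**
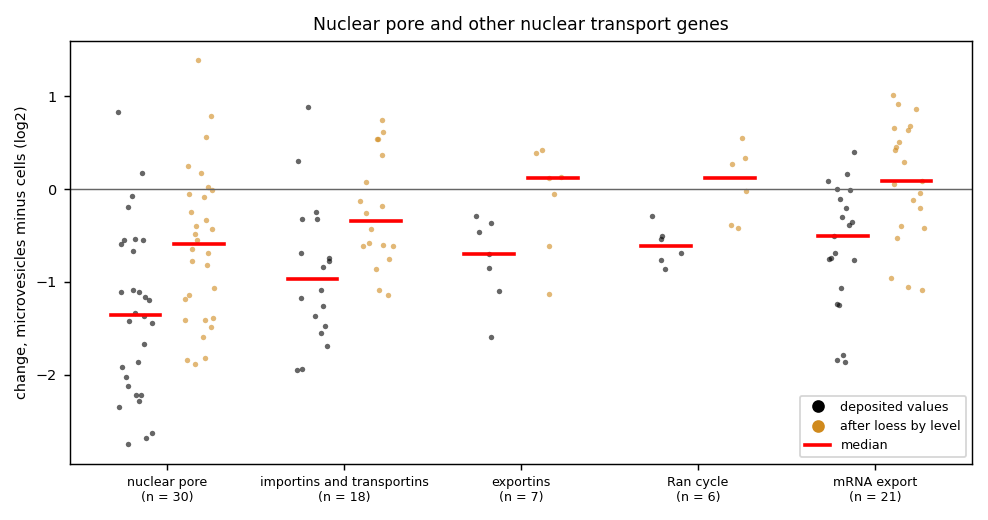
Change of each gene, microvesicles minus cells (log2, vertical axis), for the nuclear pore and 4 lists of nuclear transport genes (horizontal axis), from the deposited values (black) and after loess normalization by level (orange), with red bars at the medians. The nuclear pore median is -1.36 in the deposited values and -0.59 after loess, and the medians of exportins, the Ran cycle and mRNA export lie above 0 after loess.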

How the data were processed

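RNA was isolated with Trizol from microvesicles and K562 cells in 5 experiments, and biotin-labelled cRNA was made from 100 ng of total RNA, per the labels' protocols. The authors deposited log2 values, 1 for each probe set and array, which the submitters' processing notes credit to RMA. The RMA version is not given in the sources used here. The arrays of the groups differ in spread, so they were scaled again as alternatives. The values show no total amount of RNA.

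Of 54630 probe sets 41091 are annotated with 1 gene, named through the gene number in RefSeq for 41037. Each gene was read from its brightest probe set over the 10 arrays, which gave 19775 genes, without a filter on dim values. Groups were compared with limma 3.58.1 in R 4.3.3 (lmFit, eBayes, 1 mean per group, two-sided), with Benjamini-Hochberg adjustment over all genes and a threshold of 0.05. Probe sets were fitted likewise over the whole table. The fit was tested on simulated data. Control probe sets were compared by exact permutation (scipy 1.17.1).

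All pore genes are named. From each transport list up to 2 rises and 2 falls with the largest change past the threshold are named, and other genes serve as markers. The members and lists were chosen with earlier results of these data known, and comparisons of lists are descriptions by count and median. Promoter windows came from RefSeq (GRCh38.p14). A planned description of protein length and FG repeats was not made. Alternatives covered scaling, probe set choice, a filter on dim genes, variance models, a replicate block and leaving out each array. The deviations of arrays with the same number correlated at -0.0281 to 0.123 over genes. Such low correlations cannot decide whether the samples were paired. The main fit did not pair them, and the replicate block is the alternative that does.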

Additional observations from a re-analysis of the deposited data

Results flagged for a closer look

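In 4 of the 60 groups of 5 arrays, 2 for each pore gene, a single array stood far from the other 4. Chance gives about 1 in 20 groups. For SEH1L, microvesicle replicate 1 stood at 9.99, and the other microvesicle arrays at 9.47 to 9.61. For AHCTF1, microvesicle replicate 4 stood at 5.17, against 6.63 to 7.15 in the others. For NUP35, microvesicle replicate 2 stood at 6.21, against 7.36 to 7.81. For NUP88, cell replicate 1 stood at 9.49, against 9.32 to 9.36 in the other cell arrays. Without the array in question each gene was lower in microvesicles and passed, with changes of -1.43 for SEH1L, -1.32 for AHCTF1, -2.02 for NUP35 and -1.39 for NUP88 (limma adjusted p = 6.36e-06, 2.66e-05, 2.09e-06 and 0.00169). The cause of these single values was not tested.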

How the results depend on the processing

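The counts of 26 lower and 1 higher pore genes changed by over 1.5 times only under the scalings by level. Quantile normalization gave 15 lower and 2 higher with a median change of -0.65, and loess 15 and 3 with -0.59. Transport genes numbered 15 lower and 12 higher after quantile normalization and 16 and 12 after loess. Their 1 rise became 0 among genes above the median, by the filter itself, and 2 with mean probe sets or with trend and robust fitting. After quantile normalization the medians were -0.84 for the Y complex, -1.21 for the inner ring, -0.75 for the channel, -0.66 for the membrane ring, -0.64 for the cytoplasmic filaments, -0.080 for NUP98 and RAE1 and -0.47 for the basket. After loess these were -0.78, -1.14, -0.68, -0.71, -0.53, -0.035 and -0.39. With mean probe sets the channel stood at -0.65 and the cytoplasmic filaments at -0.84, and without the dim POM121 the membrane ring at -2.22. With the brightest probe set in cells NUP98 and RAE1 stood at -1.36 and the basket at -2.01, because other probe sets of NUP98 and TPR were read.

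The sign of a change turned after loess for SEC13 (0.027), NUP188 (0.79), POM121 (-0.0043), NUP214 (0.57), RAE1 (0.17) and NUP50 (0.25), and after quantile normalization for NUP188 (0.82), NUP214 (0.50), RAE1 (0.081) and NUP50 (0.23). With mean probe sets NUP188 stood at 0.19. When each array was left out, the change ran over -0.22 to 0.12 for NUP188 and -0.00052 to 0.29 for POM121. Apart from the turn of NUP188 and POM121, leaving out an array kept every gene on its side of the threshold, with 26 lower and 1 higher each time and a median of -1.52 to -1.28. Transport genes then numbered 30 to 35 lower and 1 to 2 higher. Subcomplex medians ran over -1.43 to -1.30 (Y complex), -2.18 to -1.65 (inner ring), -1.66 to -1.29 (central channel), -1.13 to -0.93 (membrane ring and anchor), -1.58 to -1.14 (cytoplasmic filaments), -0.95 to -0.72 (NUP98 and RAE1), -1.30 to -0.94 (nuclear basket). The replicate number as a block, which was not taken as a pairing, gave 26 lower and 1 higher pore genes and 30 lower transport genes, and changed the call of none of the 30 pore genes. Microvesicle replicates 3, 4 and 5 correlated best with the cell array of their own number, and replicates 1 and 2 did not. This does not settle whether the samples were paired. The causes of these differences between scalings were not tested. Values without a detection call limit what can be said of genes near the array median.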
